A study of Homo sapiens with 7 samples.

Results

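The replication-dependent histone genes of chromosome 6 were examined for CTCF peaks in K562 cells with and without the G-quadruplex (G4) ligand pyridostatin (PDS). The genes were taken by position and name, as protein-coding genes between 25.7 and 28 Mb of chromosome 6 (hg19) whose symbols mark them as H1, H2A, H2B, H3 or H4 genes of the replication-dependent series. This gave 52 genes of the 20163 protein-coding genes annotated on the chromosomes, namely 6 H1, 12 H2A, 13 H2B, 10 H3 and 11 H4 genes. The rule uses no peak, but it was chosen with earlier results of these data known.

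K562 cells are a human leukaemia line in long-standing use, and PDS binds and stabilizes folded G4s. The series held 7 chromatin immunoprecipitation sequencing (ChIP-seq) samples. CTCF was precipitated in duplicate, and nonspecific IgG once, from cells without the ligand, and each antibody was used in duplicate on cells given 10 μM PDS for 24 h. The authors called peaks once per condition on both CTCF replicates over IgG, which left 1 list of 33094 peaks for control cells and 1 list of 32917 peaks for PDS-treated cells. The lists hold no read counts and no value per replicate, so the depth behind a peak is unknown, no SD can be given, and no difference between the conditions could be tested over replicates.

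Histone genes of this kind are transcribed mainly in S phase, when new DNA has to be packed into nucleosomes. H2A, H2B, H3 and H4 form the nucleosome core and H1 binds the linker DNA between nucleosomes. Their short, intronless transcripts end in a conserved stem-loop that the stem-loop binding protein recognizes, in place of a poly(A) tail. CTCF is a zinc-finger protein that binds DNA through a long motif and, with cohesin, marks the borders of chromatin loops. A G4 is a 4-stranded fold of DNA with runs of guanines.

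The stem-loop was searched as a check of the label, with a 16-base histone stem-loop pattern on the gene strand and up to 2 mismatches. It was found at all 52 genes, without a mismatch at 48 and with 1 mismatch at H4C13, H3C6, H2BC10 and H2AC15. The most frequent form was present in 30 genes, none of them an H4 gene, the second in 8 genes that were all H4 genes, and the third in 7 genes including H1-1, H2BC4 and H3C8. They are shown 5′ to 3′ with the complementary stem in capitals, as read from the GRCh37 (hg19) genome.
Form in 30 H1, H2A, H2B and H3 genes: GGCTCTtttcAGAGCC
Form in 8 H4 genes: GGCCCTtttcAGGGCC
Form in 7 H1, H2B and H3 genes: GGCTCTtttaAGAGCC

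The genes lay in 4 blocks separated by more than 200 kb, with 2 genes in the first block (H2AC1 and H2BC1), 29 genes over 268.607 kb in the second, 5 genes over 21.666 kb in the third and 16 genes over 86.413 kb in the fourth. The shortest coding transcript of a gene, called its histone transcript here, had a median length of 486.5 bp and ranged from 357 to 797 bp. As annotated, 11 of the genes exceed 1 kb because they carry longer alternative transcripts. The longest of these is H2BC4, whose annotated span of 37610 bp contains HFE, the haemochromatosis gene that regulates iron uptake. Peaks within 5 kb of such genes can therefore lie far from the histone transcript itself. The nearest peak lay 19014 bp (control) and 18894 bp (PDS) from the histone transcript of H2BC4, and 16225 and 16965 bp from that of H2BC5. Counted from the histone transcript, 26 of the 52 genes had a control peak within 5 kb and 23 a PDS peak, beside 46.8% and 44.1% of all protein-coding genes counted from the shortest coding transcript. The histone transcript starts 24 to 11702 bp away from the annotated gene start in 6 genes, farthest in H2BC6, and none of the calls of a peak or a G4 motif at the start changed when the transcript start was used.

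Across the interval there were 68 CTCF peaks in control cells and 70 in PDS-treated cells. Of these, 19 control and 18 PDS peaks lay within 5 kb of a histone gene, and 49 and 52 lay elsewhere in the interval. The interval was dense in CTCF peaks, with 29.6 control and 30.4 PDS peaks per Mb against 11.4 and 10.5 per Mb over the sequenced part of chromosome 6. Within the 4 blocks of histone genes the density was 44.7 and 39.4 per Mb, and in the rest of the interval it was 26.6 and 28.7 per Mb. The peaks inside the blocks belonged mostly to the second block, which held 14 control and 13 PDS peaks, whereas the fourth block held 2 and 1. The peaks that flank a block, such as those beside H2AC1 and H2BC17, are not counted in these densities.

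**Figure D1:**
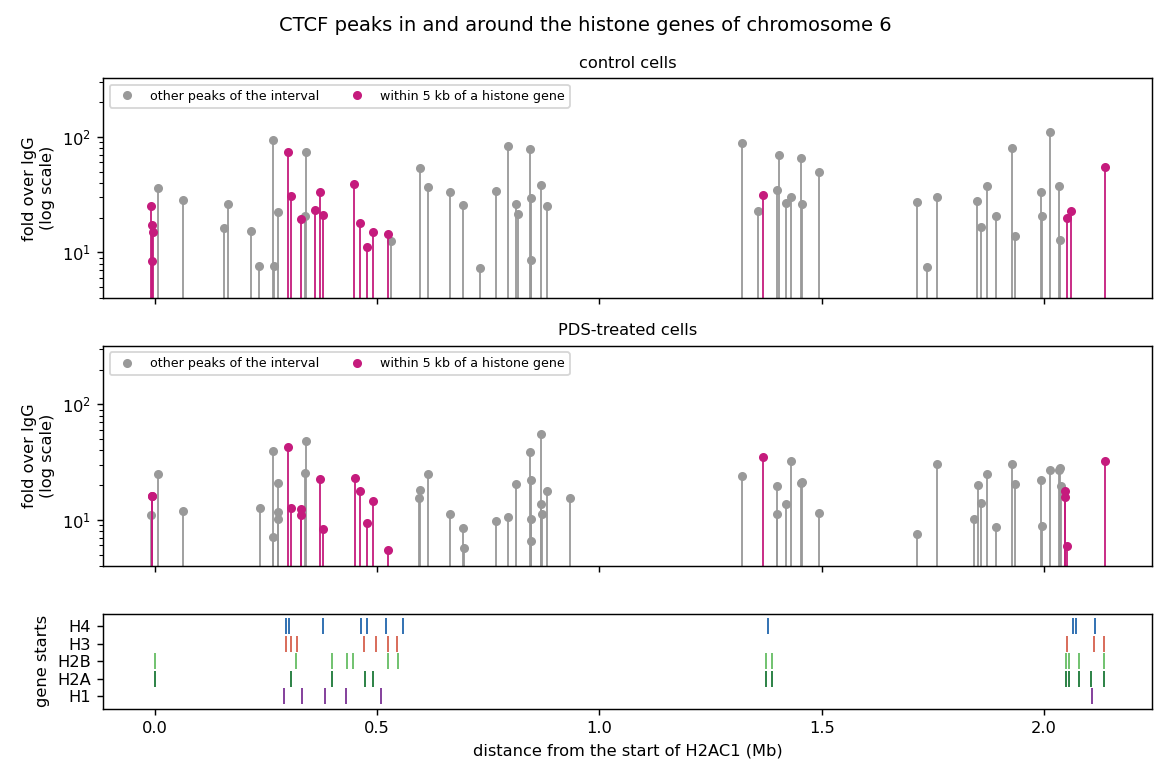
CTCF peaks along the interval, plotted as the authors' fold over IgG (log scale) against distance from the start of H2AC1 (Mb), with control cells above, PDS-treated cells in the middle and the starts of the 52 histone genes by class below. Peaks within 5 kb of a histone gene (magenta, 19 control and 18 PDS) are most numerous in the second block. The other peaks (grey, 49 control and 52 PDS) make up most of the peaks of the interval and most of its highest ones.

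A peak within 5 kb of the annotated gene was present at 28 of 52 histone genes (53.8%) in control cells and at 26 (50.0%) in PDS-treated cells. Over all protein-coding genes the share was 62.7% and 59.3%, and most of these genes are much longer, with a median of 9223 bp for the shortest coding transcript. Measured from the gene start, which does not depend on length, 24 histone genes (46.2%) had a control peak within 5 kb and 22 (42.3%) a PDS peak, beside 35.8% and 34.1% of all protein-coding genes. Neighbouring histone genes share these peaks, so the count of genes exceeds the count of independent sites. The 19 control peaks served 28 genes, and a single control peak on H3C10 was within 5 kb of 5 genes.

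Of the 28 genes, 26 had a peak within 5 kb in both lists, and 88.2% of all protein-coding genes with such a peak in either list had one in both. The exceptions were H2AC7, an H2A gene, and H4C11, an H4 gene, and both had a peak in control cells only. For H2AC7 the difference was one of a boundary: its nearest peak lay 4939 bp away in control cells and 5029 bp away in PDS-treated cells, and both are the peak upstream of H4C5. For H4C11 the nearest peak was 4129 bp away in control cells and 13619 bp away in PDS-treated cells. The genes just outside the limit were H2BC1, at 5167 bp in control cells and 5127 bp in PDS-treated cells, H3C1 at 5314 bp in both lists, and H2AC11 at 5361 and 5521 bp.

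No peak lay within 5 kb in either list at 24 of the 52 genes, beside 35.2% of all protein-coding genes. These were 4 of 6 H1 genes (H1-1, H1-3, H1-4 and H1-5), 5 of 12 H2A genes, 5 of 13 H2B genes, 6 of 10 H3 genes and 4 of 11 H4 genes. The farthest of all 52 genes from a peak was H2AC16, at 29524 bp in control cells and 29474 bp in PDS-treated cells. The run from H4C12 to H4C13 in the fourth block, with 7 genes, had no peak within 5 kb in either condition. The median distance to the nearest peak over the 52 genes was 4257.5 bp and 4789 bp, respectively.

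CTCF peaks over the gene start, taken as the start ± 500 bp, were present at 7 histone genes (13.5%) in control cells and at 8 (15.4%) in PDS-treated cells. Over all protein-coding genes this share was 18.3% and 17.3%. In the better 50% of each list by p-value, 4 histone genes (7.69%) and 2 (3.85%) had one, beside 11.7% and 12.3% of all protein-coding genes. The 7 genes of control cells were H3C2, H3C7 and H3C10 among the H3 genes, H4C3, H4C4 and H4C5 among the H4 genes, and the H2A gene H2AC8. The same 7 genes had a peak over the start in PDS-treated cells, where H1-2, a linker histone gene, was added. Among all protein-coding genes with a peak over the start in either list, 78.0% had one in both. None of the 13 H2B genes had a peak over its start in either list.

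Most of these peaks sat inside the gene and not upstream of it. In control cells 6 of the 7 were centred downstream of the start and in PDS-treated cells 7 of the 8. Among all protein-coding genes with a peak over the start, 43.7% and 42.7% had every such peak centred downstream. All 6 overlapped the coding sequence of the gene. With the H1-2 peak of PDS-treated cells this made 6 histone transcripts (11.5%) under a control peak and 7 (13.5%) under a PDS peak, beside 28.3% and 26.1% of all protein-coding genes, whose shortest coding transcripts are mostly much longer. On H3C2 the peak covered the bases from 7 to 306 bp past the start in control cells and from 27 to 326 bp in PDS-treated cells. On H2AC8 it ran from 32 to 391 bp and from 102 to 501 bp. On H3C7 it ran from 83 to 442 bp in control cells and from 163 to 512 bp in PDS-treated cells. The transcripts are so short that such a peak covers much of the gene. The peak on H4C4 was the only one across the start itself, from -60 to 299 bp in control cells and from -10 to 289 bp in PDS-treated cells, where negative values are upstream. The peak on H4C3 lay at 100 to 519 bp and at 290 to 639 bp, and the narrow one on H3C10 at 252 to 431 bp and at 222 to 421 bp. Peak edges follow steps of 60 bp in the control list and 50 bp in the PDS list, which limits how finely edges can be compared.

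**Figure D2:**
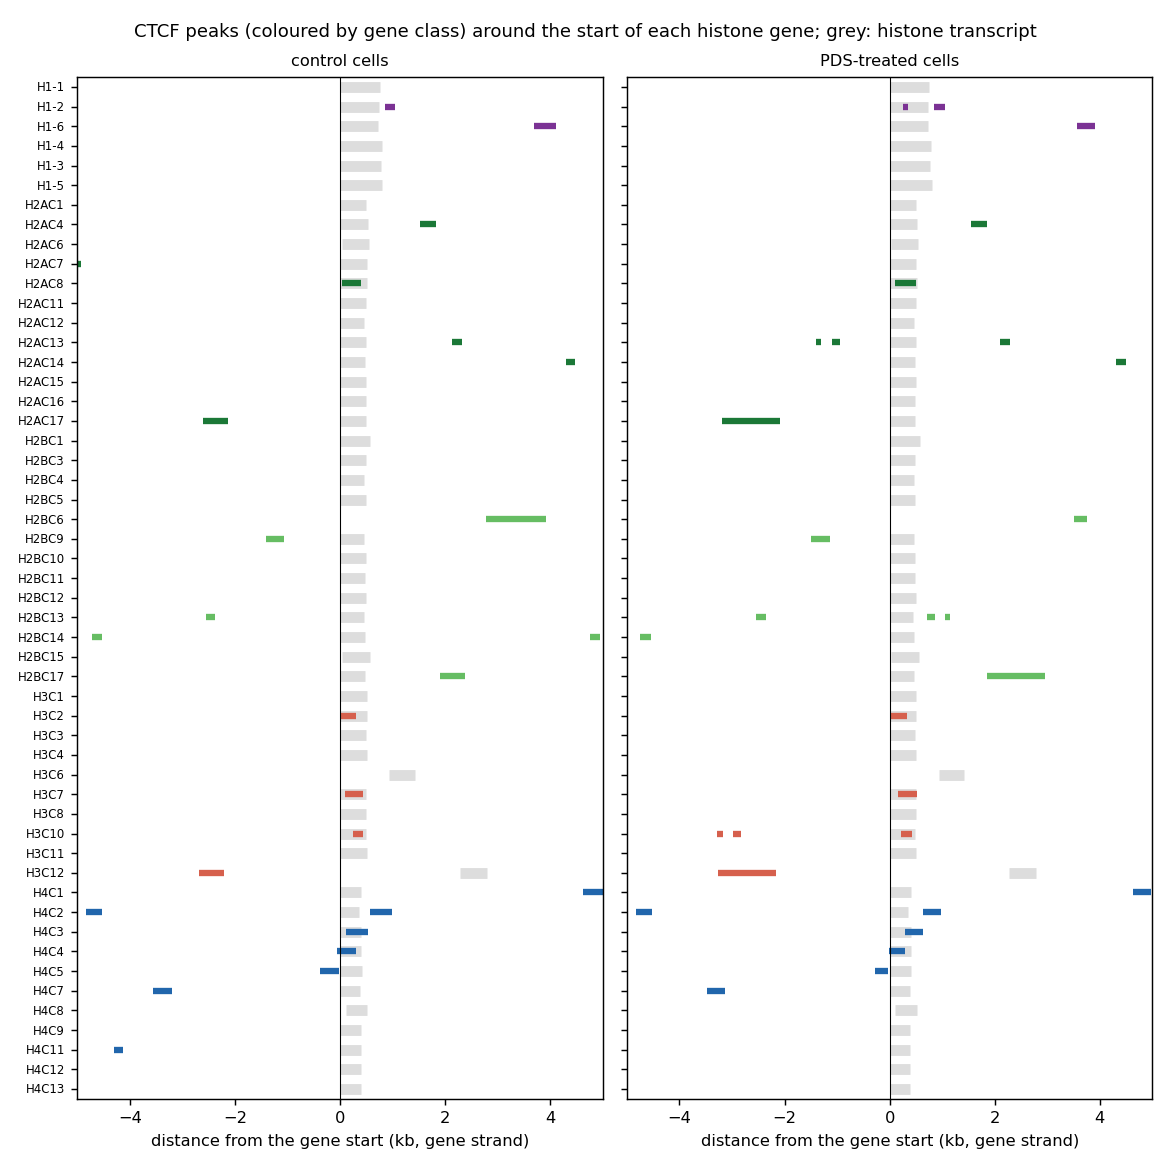
Extent of the CTCF peaks around the start of each of the 52 histone genes (rows, grouped by class), in kb along the gene strand, for control cells (left) and PDS-treated cells (right), with the histone transcript in grey (that of H2BC6 lies beyond the plotted range) and peaks coloured by class. The 6 genes with a peak on the transcript in both lists, and the H1-2 peak in PDS-treated cells, stand out against the rows without a peak.

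The peaks on histone transcripts were of low to middle height within their lists. Fold enrichment over IgG was computed by the authors for each condition against its own IgG samples, so folds are given side by side and only the places within a list are compared. A percentile of 100 marks the highest fold of a list. On H3C2 the fold was 30.6 in control cells, at percentile 61.6, and 12.8 in PDS-treated cells, at percentile 26.2. On H4C3 it was 20.9 at percentile 31.6 and 8.25 at percentile 7.75, and on H4C4 18.1 at percentile 24.7 and 17.8 at percentile 56.0. The order of the genes thus differed between the lists, with H3C2 highest of the 6 in control cells and H4C4 highest in PDS-treated cells.

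The remaining 3 peaks were low in one list or in both. H2AC8 had a fold of 14.9 at percentile 16.6 in control cells and 14.5 at percentile 35.5 in PDS-treated cells. H3C7 had a fold of 14.3 at percentile 15.3 and 5.50 at percentile 1.01, and H3C10 one of 20.0 at percentile 29.3 and 5.90 at percentile 1.53. By p-value the H2AC8 peak stood higher, at percentile 81.6 in control cells and 60.5 in PDS-treated cells, and so did the H3C7 peak, at 45.9 and 47.1. The H3C10 peak was low by p-value as well, at percentiles 7.57 and 11.1. A low fold therefore did not always go with a weak p-value.

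The H1-2 peak of PDS-treated cells lay at chr6:26056351-26056450 in the coding sequence of H1-2, from 248 to 347 bp past the start. It was as narrow as a peak of that list can be, 100 bp, with a fold of 10.95 at percentile 18.05 and a p-value at percentile 5.84. A second peak just past the 3′ end of H1-2 was present in both lists, at chr6:26055661-26055840 in control cells and chr6:26055651-26055850 in PDS-treated cells, with folds of 19.2 and 12.3. A peak thus lay close to H1-2 in both conditions, and the difference between the lists concerns 1 narrow peak near the end of its list.

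H4C5 was the only histone gene of the interval with a peak over its start that lay wholly upstream. The peak ran from -377 to -18 bp relative to the start in control cells and from -287 to -38 bp in PDS-treated cells. The fold was 11.0 at percentile 9.37 in control cells and 9.43 at percentile 11.9 in PDS-treated cells. It was also the only peak over a histone start of the interval with a match to the CTCF consensus, a 15-base motif. The match had 1 mismatch, and none of the peaks over these starts had an exact match. No other histone gene of the interval had a peak wholly upstream of its start and within 500 bp of it in both lists. The 250 bases of the PDS peak, chr6:26204551-26204800 on the plus strand of GRCh37 (hg19), are therefore shown, with the consensus match in capitals.
H4C5 promoter peak: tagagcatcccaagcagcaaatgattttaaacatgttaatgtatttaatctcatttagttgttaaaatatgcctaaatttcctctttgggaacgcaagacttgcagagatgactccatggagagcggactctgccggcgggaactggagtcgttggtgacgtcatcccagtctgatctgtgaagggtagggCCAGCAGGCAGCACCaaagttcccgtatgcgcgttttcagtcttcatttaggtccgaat

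The highest peaks near histone genes lay outside the histone transcripts. The first of both lists was beside H4C2, an H4 gene, at chr6:26026501-26026920 in control cells and chr6:26026501-26026850 in PDS-treated cells, 203 and 273 bp from the 3′ end of the gene. Its fold of 74.5 ranked 928 of 33094 control peaks, and its fold of 43.1 ranked 591 of 32917 PDS peaks. It also lies within 5 kb of H4C1 and H3C2. The next in control cells flanked the far end of the fourth block, at chr6:27863101-27863580, 1431 bp past the annotated end of the H2B gene H2BC17 and within 5 kb of H2AC17 and H3C12. Its fold was 55.1 (rank 2850), and the overlapping PDS peak at chr6:27863051-27864150 had a fold of 32.2 (rank 2259). Both sites are intergenic in the annotation, and these peaks were the only ones near histone genes in the highest 10% of the control list, in which 10.0% of all peaks fall by definition.

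In PDS-treated cells 3 of the 18 near peaks were in the highest 10% of the list, and the additional one belonged to the H2B gene H2BC11. It lay at chr6:27094601-27095300, with a fold of 35.1 (rank 1573), and overlapped the control peak at chr6:27094681-27095460, with a fold of 31.6 (rank 11897). By p-value this peak ranked high in both lists, 799 in control cells and 1730 in PDS-treated cells. It lies in an intron of a long H2BC11 transcript, more than 5 kb downstream of the gene start, and was not within 5 kb of the other genes of the third block.

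The next near peaks by fold in control cells lay in the spans of long H2B transcripts. A peak in the span of H2BC6, which is also within 5 kb of H2BC5, covered chr6:26175061-26176200 in control cells, with a fold of 38.7 (rank 7563), and chr6:26175801-26176050 in PDS-treated cells, with a fold of 23.2 (rank 7440). It lies in an intron of a long H2BC6 transcript, 7788 bp (control) and 7938 bp (PDS) upstream of the histone transcript of that gene. In the span of H2BC4 a peak over the 3′ untranslated region of HFE, at chr6:26097301-26098080, had a fold of 33.2 (rank 10712) in control cells and, at chr6:26097551-26098050, one of 22.4 (rank 8166) in PDS-treated cells. Its centre was at -6471 bp from the start of H4C3, the nearest histone gene start, in control cells. H2AC1 had 4 control peaks and 2 PDS peaks within 5 kb of its annotated 3′ end. Their folds were 8.36 to 24.95 in control cells and 16.05 and 16.15 in PDS-treated cells. All of them lie within the span of another annotated protein-coding gene, which has no symbol. The nearest peak lay 4830 bp (control) and 5040 bp (PDS) from the H2AC1 histone transcript.

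The heights of the peaks within 5 kb of a histone gene were spread widely within each list. Their median fold was 20.9 in control cells, beside 26.5 for the whole list, and 15.95 in PDS-treated cells, beside 16.7. Of the 19 control peaks 13 were below the median of their list, and of the 18 PDS peaks 11 were. The median percentile was 31.6 (range 4.97 to 97.2) in control cells and 45.1 (range 1.01 to 98.2) in PDS-treated cells. Its 95% interval from the order of the peaks was 16.8 to 64.1 and 18.05 to 75.2. This interval treats neighbouring peaks as independent, so it describes their spread only and is no test against the whole list. The medians were 53.1 and 57.1 for the other peaks of the interval. By p-value the medians were 47.8 and 43.97 for the near peaks and 62.3 and 55.0 for the other peaks.

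Peaks that overlap between the lists by at least 1 bp made up 15 of the 19 near peaks of control cells (78.9%) and 14 of the 18 of PDS-treated cells (77.8%), beside 78.0% and 78.6% of all peaks. These shares are close to those of the whole lists. All 6 peaks that lay on a histone transcript in control cells had a partner in PDS-treated cells. The control peaks without a partner were a pair beside H2AC1, at chr6:25719961-25720080 and chr6:25721341-25721460, one at the start of HFE in the span of H2BC4 at chr6:26087701-26087820, and one between H2BC14 and H4C11 at chr6:27787561-27787740. They were 120 or 180 bp wide, with p-values at percentiles 2.15 to 17.4 of the control list.

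The PDS peaks without a partner were the one on H1-2, one beside H2AC1 at chr6:25719701-25719800, and a pair beside H2BC13 at chr6:27774551-27774650 and chr6:27774851-27775000, with folds of 17.7 and 15.9. The second of this pair lay on H4C10P, an H4 pseudogene, and both brought a peak to within 5 kb of H2BC13, H2AC13 and H3C10, which had one in control cells as well. All 8 peaks without a partner were 180 bp wide or less, and the widths of the near peaks ranged from 120 to 1140 bp in control cells and from 100 to 1100 bp in PDS-treated cells.

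**Figure D3:**
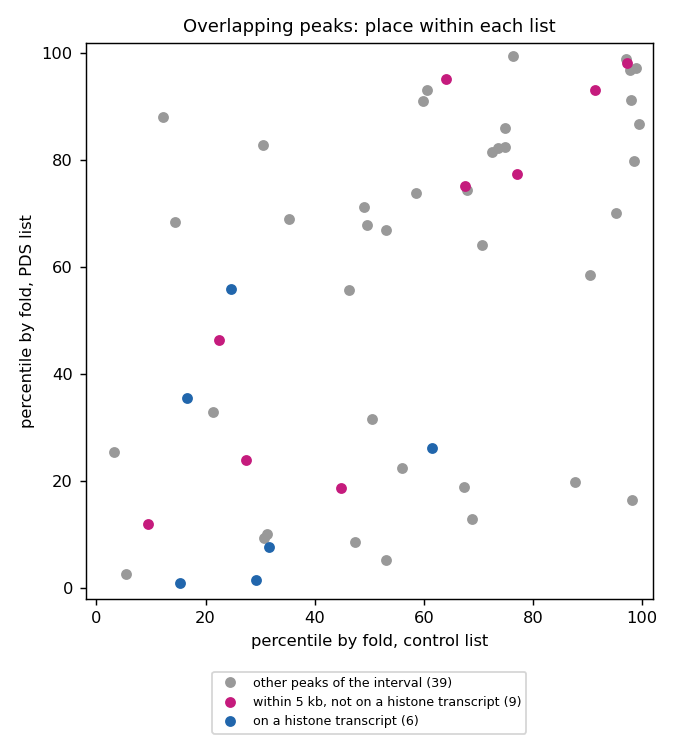
Percentile by fold of overlapping peaks of the interval within the control list (x axis) and within the PDS list (y axis), where 100 is the highest fold. Grey marks 39 pairs more than 5 kb from a histone gene, magenta 9 pairs within 5 kb but not on a transcript, and blue 6 pairs on a histone transcript. The blue points lie at percentiles 15.3 to 61.6 in control cells and 1.01 to 56.0 in PDS-treated cells, below the highest magenta points.

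The CTCF consensus was searched in each peak on both strands. An exact match was present in 1 near peak of each list (5.26% and 5.56%), beside 17.3% and 14.4% of all peaks on the chromosomes. With up to 1 mismatch it was found in 8 control peaks (42.1%) and 6 PDS peaks (33.3%), beside 54.3% and 46.2% of all peaks. None of the peaks on a histone transcript, 6 in control cells and 7 in PDS-treated cells, held a match even at 1 mismatch. The exact match belonged to the intronic H2BC6 peak. The best matches at the highest near peaks are shown with the 15 consensus bases in capitals and 7 bases on either side, 5′ to 3′ on the strand of the match. The positions of the capitals in GRCh37 (hg19) are chr6:26175810-26175824 (plus strand, no mismatch) for H2BC6, chr6:26026673-26026687 (plus strand) for H4C2, chr6:27863456-27863470 (minus strand) for H2BC17, chr6:26097689-26097703 (minus strand) for HFE, and chr6:27094936-27094950 and chr6:27095011-27095025 (plus strand) for H2BC11. The last 5 have 1 mismatch each.
H2BC6, long-transcript intron: tcatcagGCACAAGGGGGCACTataagcc
H4C2, beyond the 3′ end: ggcgctaCCGGCAGGGGGCGGTtaaggac
H2BC17, beyond the 3′ end: ttttttgCCACAAGATGGCAGGagaaggc
HFE in the span of H2BC4: cctatggCCACCAGGTGTCACCcttctct
H2BC11, first site: gttattgCCATAAGATGGCGACagccctt
H2BC11, second site: attatcgCCACAAGATGGCGATagcgctt
The H2BC11 peak held 3 such matches, more than any other near peak, and the third of them was at chr6:27094736-27094750.

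G4 motifs were searched on both strands, a motif being 4 runs of 3 or more G that are parted by 1 to 7 bases. They were rare at histone starts, since only 3 of the 52 genes (5.77%), H1-1, H4C1 and H4C8, had one within 500 bp of the start, beside 55.6% of all protein-coding genes. None of these 3 genes had a CTCF peak over its start in either list. Among all protein-coding genes without a G4 motif at the start, 1212 of 8947 (13.5%) had a control peak over it and 1165 (13.02%) a PDS peak. Among the 11216 with a motif, 2483 (22.1%) and 2317 (20.7%) had one. This split was made after the values were seen and is given as a description.

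**Figure D4:**
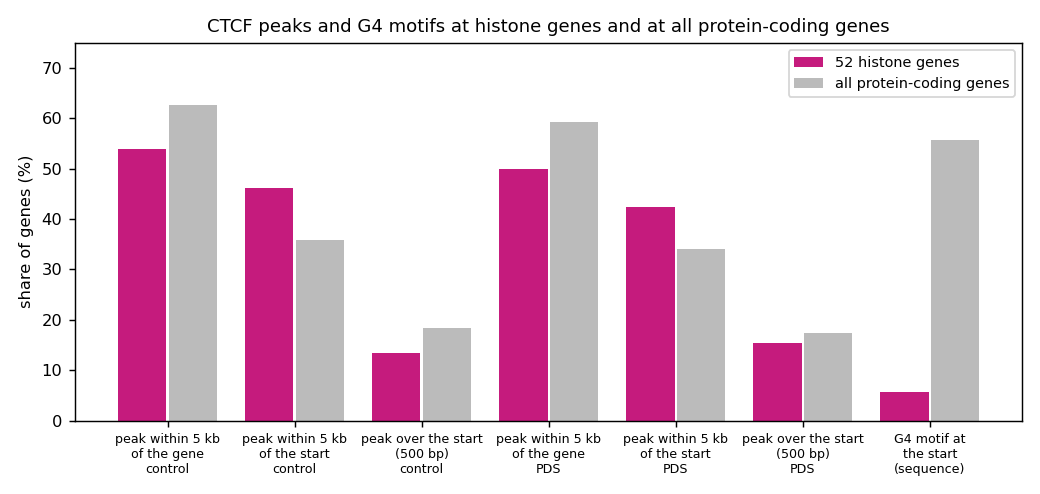
Share of genes (%) with a CTCF peak within 5 kb of the gene, within 5 kb of the start and over the start (500 bp on either side) in each list, and with a G4 motif at the start, for the 52 histone genes (magenta) and all 20163 protein-coding genes (grey). The bars differ most for the G4 motif, 5.77% against 55.6%.

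Among the peaks near histone genes, 2 in each list held a G4 motif (10.5% and 11.1%), beside 16.1% and 17.2% of all peaks. The share was 10.2% and 9.62% for the rest of the peaks of the interval. None of the near peaks with a motif lay on a histone transcript. The H2BC11 peak held one in both lists at chr6:27094789-27094818 (plus strand), close to its consensus matches. The others were at the start of HFE in control cells, at chr6:26087755-26087784 (plus strand), and beyond H2BC17 in PDS-treated cells, at chr6:27863640-27863659 (plus strand), in the portion of that peak that extends past the control peak. They are shown with the runs of G in capitals.
H2BC11 intron: GGGGGaactGGGcggctGGGGGctgttGGG
HFE start: GGGctgcGGGcgaactaGGGGcgcggcGGG
Beyond H2BC17: GGGagcGGGaGGGGGGcGGG

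Near-identical histone genes limit what the lists can show, because reads from repeated sequence cannot be placed on 1 copy. For reads of 50 bases, the length in the sample labels, the share of positions whose sequence occurs once in the genome was 100% over the histone transcripts of 30 genes, below 90% in 11 and below 50% in 5. The lowest were the H4 genes H4C12 (7.40%) and H4C11 (7.94%), followed by H2AC14 (33.7%), H2AC13 (36.5%) and H2BC12 (42.8%). None of the 11 genes below 90% had a peak over its start, beside 18.3% and 17.3% of all protein-coding genes with one, a difference that 11 genes are too few to read. The cut was made over the transcript and not at the start. Over the start ± 500 bp the share in these 11 genes ran from 56.7% (H4C11 and H4C12) to 95.4% (H2BC5). The methods of the study describe paired-end libraries. With paired or longer reads, more positions would be unique. All 10 H3 genes and all 6 H1 genes were at 100% over the transcript, and the interval as a whole was at 86.9%. Every near peak of control cells was fully unique by this measure, and the lowest near peak of PDS-treated cells was at 92.2%.

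Head-to-head pairs are a feature of these blocks, in which genes transcribed in opposite directions share the DNA between their starts, most often an H2A and an H2B gene. There were 9 pairs with starts within 1 kb, 8 of them with 170 to 251 bp between the starts. No peak covered a start in any of these 8 pairs, in either list, beside 18.3% and 17.3% of all protein-coding genes with one. The pairs were looked at after the values were seen, so nothing is read from this count. The exception was the wider pair of H3C7 and H2BC9, with 979 bp between the starts, where the peak lay on H3C7.

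Histone pseudogenes, copies that no longer encode a histone, lie among the functional genes, and 13 were annotated in the interval. A CTCF peak overlapped 3 of them in control cells (H2AC2P, H2AC3P and H3C9P) and 3 in PDS-treated cells (H2AC2P, H3C9P and H4C10P). Over all 15399 annotated pseudogenes the share with a peak was 2.66% and 2.78%. H2AC2P and H3C9P had a peak in both lists. The pseudogenes were chosen after their values were seen, and the share over all pseudogenes is not taken from a region as dense in peaks, so the counts are given as values only.

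The other peaks of the interval made up most of its peaks and included most of its highest ones. In the highest 10% of their lists were 10 of 49 other control peaks and 7 of 52 other PDS peaks. Near histone genes 2 of 19 control and 3 of 18 PDS peaks were. Peaks of the highest 10% numbered 5.25 (control) and 7.88 (PDS) per Mb inside the blocks. In the rest of the interval they numbered 5.21 and 3.65 per Mb. The genes named beside the other peaks are the nearest protein-coding genes with a symbol, other than the histone genes, which can lie closer. The 5 highest control peaks were at chr6:27739981-27740640 (fold 109.8, rank 157; nearest other protein-coding gene OR2B2, an odorant receptor gene), chr6:25992601-25993440 (fold 93.3, rank 356; beside TRIM38, a ubiquitin ligase gene), chr6:27046621-27047040 (fold 88.4, rank 460; nearest other protein-coding gene PRSS16, a thymus protease gene), chr6:26521861-26522280 (fold 82.6, rank 594; beside BTN1A1, a butyrophilin gene) and chr6:27654961-27655620 (fold 80.0, rank 683; nearest other protein-coding gene ZNF184). All 5 had an overlapping PDS peak, at ranks from 909 to 27524. The TRIM38 peak lies between the first and second blocks, the PRSS16 peak just before the third, and the OR2B2 peak 35397 bp from the start of H2BC13, the first gene of the fourth.

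The 5 highest PDS peaks more than 5 kb from a histone gene began with chr6:26595801-26596450 (fold 55.7, rank 144), 730 bp before ABT1, a gene of basal transcription. The second, at chr6:26066251-26066450 (fold 48.2, rank 333), lay inside the second block, with its centre at -9652 bp from the start of H1-2. Its nearest other protein-coding gene was HFE. The third was the TRIM38 peak (fold 39.5, rank 909). The others were at chr6:26569351-26569650 (fold 38.5, rank 1042, nearest other protein-coding gene HMGN4) and chr6:27156351-27156900 (fold 32.3, rank 2226, nearest other protein-coding gene PRSS16). The ABT1 peak held an exact consensus match on the minus strand at chr6:26596169-26596183, and the OR2B2 peak one with 1 mismatch on the plus strand at chr6:27740398-27740412. They are given for comparison with the matches at the histone genes, with the consensus bases in capitals.
ABT1: ggcgcgaCCAGCAGGGGGCGCCgtcccca
OR2B2: gcagtctCCACCAGGCGGCGCGccccagg

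The genes that transcribe and process histone RNA were described from a list of 17. A peak lay over the start of 5 in control cells and 4 in PDS-treated cells, beside 18.3% and 17.3% of all protein-coding genes. Of these genes 3 were the same, namely NPAT, the coactivator of histone transcription in S phase, LSM11, a subunit of the U7 snRNP that cleaves histone RNA, and POU2F1, an octamer-binding factor of H2B promoters. NPAT had a fold of 42.2 (rank 6121) in control cells and 42.1 (rank 665) in PDS-treated cells. LSM11 had one of 64.7 (rank 1625) and 21.8 (rank 8916), and POU2F1 one of 128.2 (rank 70) and 19.2 (rank 12328). The peak at NPAT, which lay wholly upstream of the gene start in both lists, thus stood higher within the PDS list. That at POU2F1 stood higher within the control list. ZNF473 and CSTF2, both of RNA processing, had a start peak in control cells only, and SYMPK, a scaffold of the cleavage complex, in PDS-treated cells only. SLBP, the stem-loop binding protein gene, CASP8AP2 and HINFP were among the 11 with none in either list.

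Other histone genes were set beside those of chromosome 6. Of 15 replication-dependent histone genes listed outside chromosome 6, 12 were analysed here, all on chromosome 1, and 1 of them had a peak over its start in both lists, H2AC21, with folds of 43.5 and 16.6. Of 11 replication-independent histone genes, whose transcripts are made outside S phase as well, 3 had one in both lists, H2AZ2 (folds 89.3 and 12.7), H2AX (19.7 and 13.3) and H1-10 (30.4 and 17.8). A peak within 5 kb was present at 3 of the 12 and at 9 of the 11 genes, in each list, beside 62.7% and 59.3% of all protein-coding genes. Of the 21 other protein-coding genes of the interval with a symbol, 5 had a peak over the start in control cells and 4 in PDS-treated cells. HMGN4 and ZNF184 had one in both. The share of all protein-coding genes with a peak over the start was 18.3% and 17.3%. These gene lists are short, and the counts are given as descriptions only.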

How the data were processed

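CTCF ChIP-seq of K562 cells was analysed from the 2 peak lists of the authors, who aligned reads to hg19 with Bowtie2 2.2.3, removed duplicates and poorly mapped reads, and ran PePr once for each condition. The deposited score and adjusted p-value were not used. The fold over IgG was computed by the authors against the IgG samples of each condition and ranked peaks within a list. The p-value was computed by the authors before deposition, and the largest was 1e-05 in both lists, below the cutoff of 0.05 that the methods state. Depth per sample is unknown.

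Genes came from GENCODE (lifted to GRCh37, the hg19 sequence). H2BC7, H2BC8 and H4C6 were not analysed here. The members and lists were chosen with earlier results of these data known, so no chance test was made. The gene details cover the 5 highest folds near histone genes per list, genes with a start peak in 1 list only, consensus matches in start peaks, genes without a peak, and the 5 highest other peaks per list. Pseudogenes and head-to-head pairs were looked at after the values were seen, and so were the placement of start peaks along the gene and the split by G4 motif.

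Overlap required 1 bp. Motif and overlap searches were tested on simulated data, where all 200 planted motifs of each kind and 350 planted overlaps were found. The tools were Python 3.11.15 and its packages numpy 2.4.6, pandas 2.3.3, pyfaidx 0.9.0.4, numba 0.67.0 and matplotlib 3.10.9, and samtools 1.23.1.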

Additional observations from a re-analysis of the deposited data

How the results depend on the processing

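No paired analysis was possible because a list pools both replicates of its condition, and for the same reason no replicate could be left out. Of 76 values recomputed under other settings, 54 stayed within 1.5 times the count or within the interval of the median, and 22 did not. With a distance of 1 kb, 13 histone genes in control cells and 14 in PDS-treated cells had a peak, or 25% and 26.9%. The share over all protein-coding genes was 54.5% and 51.3%. Counts at 1 kb and 5 kb include the gene itself, and most protein-coding genes are much longer than histone genes. Within 5 kb of the gene start, which does not depend on length, the main settings gave 46.2% and 42.3%, beside 35.8% and 34.1%. With a start window of 200 bp, 5 genes (9.62%) had a PDS peak over the start, beside 13.1% of all. Without the testis variants H1-6, H2AC1 and H2BC1, 26 control and 24 PDS genes had a peak within 5 kb, beside 28 and 26 with them. The counts over the start stayed at 7 and 8. Keeping the better 50% of each list by p-value, which removes peaks by construction, left 16 control (30.8%) and 11 PDS genes (21.2%) with a peak within 5 kb and 4 (7.69%) and 2 (3.85%) with one over the start, beside 44.7% and 44.3% and 11.7% and 12.3% of all protein-coding genes. It left 9 and 7 peaks near histone genes, of which 6 in each list were shared, and 31 and 28 elsewhere, with 1 near control peak holding a G4 motif and 0 near PDS peaks an exact consensus match. With the G4 search limited to 200 bp at the peak centre, 1 near peak in each list held a motif. With up to 1 mismatch, 8 control and 6 PDS near peaks held the consensus. An alternative chosen after seeing the data took each gene as its shortest coding transcript, which left 1 near control peak with a G4 motif and 0 near peaks with an exact consensus match in both lists. The samples hold 1 IgG library of control cells and 2 of PDS-treated cells. Whether the control folds also rest on another IgG library is not known from the list, and the part of the IgG libraries in differences between the lists was not tested.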
